A study of Mus musculus with 6 samples.

Results

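The nuclear genes for the subunits and assembly factors of respiratory complex I were followed in cultured mouse pancreatic islets exposed to cisplatin. They were taken as all rows of the count table whose gene symbol starts with Nduf, which gave 63 probe rows for 45 genes out of 30146 rows for 21400 genes. By name, 36 of these genes (54 rows) are subunits, 8 (8 rows, Ndufaf1 to Ndufaf8) are assembly factors, and Ndufab1 (1 row), the mitochondrial acyl carrier protein, is both a component of the complex and a carrier for fatty acid synthesis. Expression was measured with TempO-Seq, which joins 2 detector oligonucleotides that anneal to neighbouring stretches of 1 RNA and then amplifies and reads the joined product, so that a row counts 1 probe and not a whole transcript. Islets from each of 3 wild-type male C57Bl/6 mice were divided between 10 uM cisplatin and its vehicle, 0.9% saline, for 48 h. This gave 3 libraries in each group, numbered 1 to 3 by mouse, and all carried the same culture medium with serum and antibiotics. The ages of the mice are not in the labels used here, and every library came from a whole-islet culture with all of its cell types.

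Complex I, NADH:ubiquinone oxidoreductase, takes electrons from NADH in the mitochondrial matrix, passes them to ubiquinone in the inner membrane and pumps protons. Its L-shaped body has a matrix arm, which holds the flavin and the iron-sulfur clusters, and a membrane arm, which holds the proton channels. The cell makes most subunits from nuclear genes and a few from mitochondrial DNA, and dedicated assembly factors join the modules without staying in the finished enzyme. In beta cells the respiratory chain makes the ATP that couples glucose metabolism to insulin release. Cisplatin is a platinum drug that forms crosslinks in DNA.

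The libraries held from 1116916 to 2272276 counts, of which 4028 to 7221 (0.295% to 0.541%) fell on Nduf rows. Cisplatin library 3 stood apart: mitochondrially encoded rows took 28.6% of its counts, against 0.188% to 3.11% in the other 5 libraries. The beta cell marker list had summed levels of 67139 to 148137 CPM (TMM-scaled CPM, counts relative to the library's scaled total) under cisplatin and 94455 to 167685 CPM under vehicle, with 4 of its 11 tested rows called lower and 1 higher. The immune list went from 113 to 217 CPM under vehicle to 6.77 to 44.0 CPM under cisplatin, and 5 of its 6 tested rows were called lower. Among other lists, 2 of 5 alpha cell rows, 1 of 4 delta and PP cell rows and 1 of 5 stromal rows were lower. Of 4 endothelial rows 2 were higher and 2 lower, and none of 4 duct rows was called. The alpha cell list summed to 8030 to 10974 CPM under cisplatin and 17382.5 to 50855 CPM under vehicle, without overlap. The sums of the delta and PP, stromal, endothelial and duct lists overlapped between the groups. Over all tested rows 13.9% were called lower and 11.1% higher, and 1 call in so short a list does not tell whether a cell type shifted. Acinar markers summed to 1.90 to 14.4 CPM under cisplatin and 3.54 to 5.05 CPM under vehicle, with 3 of their 6 rows at 0 in every library and none tested. The part of these shifts in the Nduf values was not tested, and in lysates of whole islets fewer cells of a type and less RNA per cell cannot be told apart.

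Most nuclear complex I rows did not pass the test between cisplatin and vehicle. Of the 63 rows, 36 had enough counts to be tested; 4 were higher under cisplatin (11.1%) and 0 were lower. The higher rows were both probes of Ndufb6 and the single probes of Ndufa7 and Ndufb9, 3 of the 29 tested genes. Over all 9381 tested rows, 25.0% were called in either direction, 11.1% higher and 13.9% lower, so the share called higher in the Nduf rows was that of the table as a whole. Calls were made at an adjusted p below 0.05 (edgeR's quasi-likelihood test, two-sided, Benjamini-Hochberg adjustment over all tested rows). At an unadjusted p below 0.05, 5 Nduf rows were higher and 1, Ndufb2, was lower, against 17.1% and 20.2% of all tested rows. DESeq2 tested 48 Nduf rows and called 4 higher and 0 lower, against 8.80% and 10.2% of the rows it tested. The median log2 fold change, given throughout as cisplatin minus vehicle, was 0.09 over the tested Nduf rows and -0.07 over all tested rows, with 20 Nduf rows above 0 and 16 below. All 3 cisplatin libraries lay above all 3 vehicle libraries in 6 of the 36 Nduf rows (19.1% of all tested rows) and below them in 5 (24.3% of all tested rows).

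These counts depend on how the libraries were put on one scale. With library totals alone in place of TMM factors, the median of all rows moved from -0.07 to -0.54, and calls over the table went from 1040 higher and 1304 lower to 459 higher (4.89%) and 2023 lower (21.6%). On that scale 1 Nduf row was called higher, Ndufb6 probe 69101, and 4 lower. The lower rows included Ndufa1 probe 30650 at -1.0, Ndufb2 at -1.25 and Ndufs7 probe 65083 at -1.53. Directions given in the following paragraphs are those of the TMM scale.

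**Figure D1:**
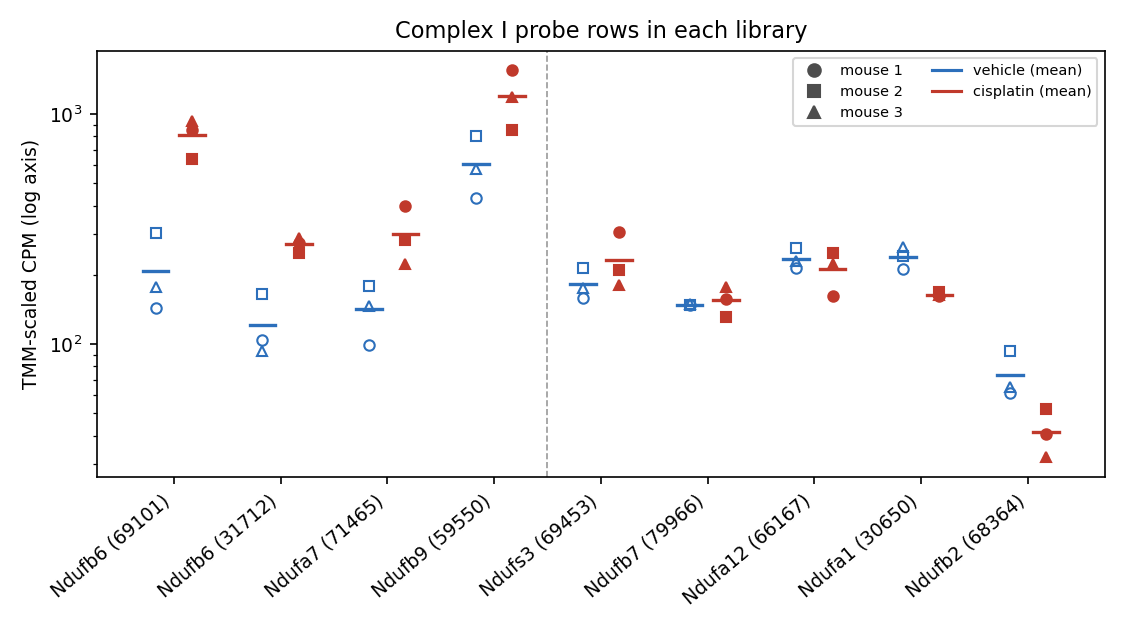
Level of selected Nduf rows in each library, as TMM-scaled CPM on a log axis, with 1 point per library (cisplatin and vehicle, 3 each) and a line at each mean. The 4 called rows have every cisplatin point above every vehicle point, while the rows shown to the right of the dashed line, chosen after their values were seen, did not pass the test.

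Ndufb6, an accessory subunit of the membrane arm, gave the firmest difference in the family. Its gene spans 8.83 kb on the minus strand of chromosome 4 (40270591 to 40279421, GRCm38, GENCODE M21). Probe 69101 stood at 854, 640 and 933 CPM in cisplatin libraries 1, 2 and 3 and at 143, 304 and 177 CPM in vehicle libraries 1, 2 and 3. The lowest cisplatin library was above the highest vehicle library, both of them from mouse 2. The log2 fold change was 1.96 ± 0.33 (SE, adjusted p = 0.00085), with log2 ratios of 2.58, 1.07 and 2.40 within mice 1, 2 and 3. This row was called under all 18 alternatives that test it, at log2 values from 1.52 to 2.47. The second Ndufb6 probe, 31712, stood at 276, 250 and 291 CPM under cisplatin and at 104, 165 and 93.3 CPM under vehicle. Its groups did not overlap either, and its log2 fold change was 1.17 ± 0.29 (adjusted p = 0.010). The call on probe 31712 was lost without vehicle library 1 (adjusted p = 0.073) and without vehicle library 3 (adjusted p = 0.081). It was also lost on library totals alone, without mouse 1 and without mouse 3, and stood under 13 of the 18 alternatives. The value of this probe stayed above 0 under all 18 as well. No annotated transcript of another gene matched Ndufb6 over 50 bases or more at 96% identity.

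Because both Ndufb6 probes differed in the same direction, the 250 bases upstream of its start are shown (RefSeq, GRCm38.p6, chr4:40279422-40279671, minus strand, written 5′ to 3′ along the gene). Capitals mark the stretch closest to CGCATGCG, the core of the site of NRF1, a transcription factor of many respiratory genes. That stretch has 1 mismatch and lies 76 to 69 bases upstream of the start. The window also holds tcttccgg, which is not marked. It is as close, with 1 mismatch, to the reverse complement of CCGGAAGT, the site of the ETS family with GABP.
Ndufb6 promoter: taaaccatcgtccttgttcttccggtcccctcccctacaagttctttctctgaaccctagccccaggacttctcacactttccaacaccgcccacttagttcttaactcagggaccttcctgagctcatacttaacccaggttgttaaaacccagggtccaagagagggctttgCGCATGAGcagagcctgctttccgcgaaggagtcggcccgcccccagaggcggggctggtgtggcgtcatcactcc
A stretch within 1 mismatch of this core, on either strand, was found in 15 of the 44 Nduf promoter windows of this length, against 9.37% of 32851 windows of all genes. Such a match describes the letters only.

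Ndufa7, an accessory subunit of the matrix arm, was the only matrix arm row called. Its gene covers 13.7 kb of the plus strand of chromosome 17 (33824572 to 33838317). It stood at 398, 284 and 222 CPM in cisplatin libraries 1, 2 and 3 and at 99.2, 179 and 146 CPM in the vehicle libraries. The groups did not overlap, and the largest gap was within mouse 1, with log2 ratios of 2.01, 0.66 and 0.60. The log2 fold change was 1.09 ± 0.31 (adjusted p = 0.021). Without cisplatin library 1 the adjusted p was 0.0535, without vehicle library 1 it was 0.124 and without vehicle library 3 it was 0.0772. With both libraries of a mouse left out it was 0.287, 0.0542 and 0.0584 for mice 1, 2 and 3, so the call was lost without any 1 mouse and stood under 12 of the 19 alternatives.

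The upstream window of Ndufa7 is shown for comparison, as the other called gene with no near-identical annotated transcript (RefSeq, GRCm38.p6, chr17:33824322-33824571, plus strand). Capitals mark its 2 stretches with 1 mismatch to AAGATGGC, the YY1 site searched, or to its reverse complement, at 134 to 127 and 101 to 94 bases upstream of the start.
Ndufa7 promoter: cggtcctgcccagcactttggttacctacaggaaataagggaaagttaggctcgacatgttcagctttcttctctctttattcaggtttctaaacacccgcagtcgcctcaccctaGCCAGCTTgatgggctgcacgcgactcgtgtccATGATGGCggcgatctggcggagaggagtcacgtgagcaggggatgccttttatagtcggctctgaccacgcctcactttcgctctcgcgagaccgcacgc
A stretch this close to the YY1 site was found in 11 of the 44 Nduf windows and in 18.8% of all windows. For CCGGAAGT, the site of the ETS family with GABP, the figures were 16 of 44 and 18.9%.

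Ndufb9, an accessory subunit of the membrane arm, had the most counts of any Nduf row. Its levels were 1553, 850 and 1192 CPM under cisplatin and 431, 805 and 577 CPM under vehicle. In mouse 2 the levels under cisplatin and vehicle were nearly alike (log2 ratio 0.08), whereas mice 1 and 3 gave 1.85 and 1.05. The log2 fold change was 0.99 ± 0.32 (adjusted p = 0.036). The call was lost without cisplatin library 1 (0.0973), cisplatin library 3 (0.0602), vehicle library 1 (0.186) or vehicle library 3 (0.136), all adjusted p-values. It was also lost on library totals alone, without mouse 1 and without mouse 3, and stood under 12 of the 19 alternatives. Ndufb9 (chromosome 15, 58933756 to 58939488, plus strand) shares 202 identical bases with the annotated transcript Gm49356, and whether the probe reads both is not known from the table, so its value is uncertain.

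The shares of these rows within the complex I family do not depend on library scaling. Ndufb6 probe 69101 took 16.7%, 15.8% and 21.6% of all Nduf counts in cisplatin libraries 1, 2 and 3 and 5.86%, 8.09% and 6.22% in the vehicle libraries. The share was higher under cisplatin in all 3 mice, with no overlap between the groups. Probe 31712 took 5.39%, 6.17% and 6.73% under cisplatin and 4.28%, 4.40% and 3.28% under vehicle, again without overlap. The shares of Ndufb9 were 30.4%, 21% and 27.6% under cisplatin and 17.7%, 21.4% and 20.3% under vehicle, and those of Ndufa7 were 7.79%, 7.01% and 5.14% against 4.07%, 4.77% and 5.15%. Both overlapped, so within the family only the Ndufb6 rows among the called ones separated the groups on this measure. A share also moves with the other members, since the shares sum to the whole.

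**Figure D2:**
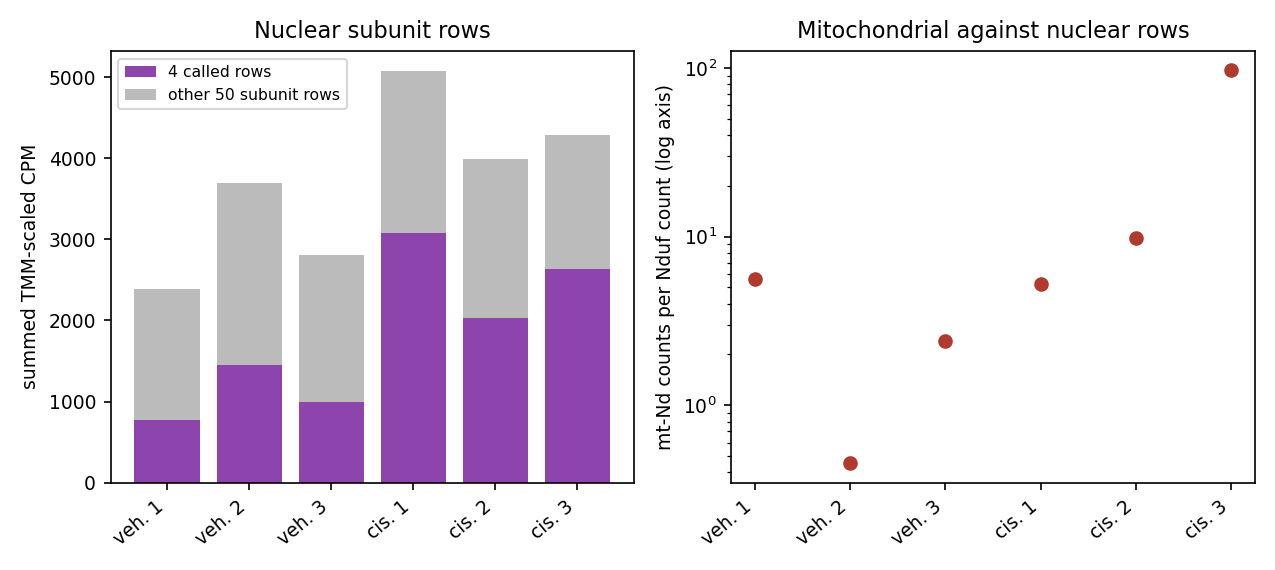
Left, summed level of the Nduf subunit rows in each library (bars, TMM-scaled CPM), split into the 4 called rows and all other subunit rows; right, counts on mitochondrially encoded complex I rows per count on a nuclear Nduf row (points, log axis). The called rows sum to 2024 to 3082 CPM under cisplatin and 778 to 1454 CPM under vehicle, whereas the other subunit rows overlap, and the ratio on the right is 96.8 in cisplatin library 3 and at most 9.80 elsewhere.

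The sum over all subunit rows was 5071, 3989 and 4292 CPM under cisplatin and 2389, 3700 and 2806 CPM under vehicle. Without the 4 called rows it was 1990, 1965 and 1654 CPM against 1611, 2246 and 1813 CPM, and the groups overlapped. Since the rows left out were chosen by their difference, this is a description only.

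The core subunits of the matrix arm are the conserved proteins that bind the flavin, the iron-sulfur clusters and ubiquinone. None of their 7 tested rows, from 5 of the 7 genes, was called, and none had an unadjusted p below 0.05; DESeq2 tested 10 and called none. On library totals alone 2 of these rows, among them Ndufs7 probe 65083, were called lower, against 21.6% of all tested rows. With TMM factors 25.0% of all tested rows were called in either direction.

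Ndufs7, which carries the last iron-sulfur cluster before ubiquinone, had probes of opposite sign. Probe 65083 stood at 6.77, 22.8 and 18.2 CPM under cisplatin and 28.9, 25.9 and 39.4 CPM under vehicle (log2 -0.99 ± 0.52, adjusted p = 0.180). The groups did not overlap. Probe 31350, with at most 13.3 CPM in any library, gave 0.14, and the untested probe 31997 stood at 7.61, 3.8 and 6.43 CPM under cisplatin and 1.98, 3.16 and 3.15 CPM under vehicle, above without overlap. Ndufs3, needed early in assembly of the matrix arm, stood at 309, 211 and 180 CPM against 159, 215 and 176 CPM, with overlap (log2 0.35, 95% interval -0.27 to 0.97). Ndufs8, another iron-sulfur protein, had only 12 counts under cisplatin and 54 under vehicle (log2 -1.10 ± 0.88, adjusted p = 0.395). Ndufv1, the flavin-binding subunit, stood at 40.6, 54.2 and 5.36 CPM against 18.6, 36 and 13.8 CPM at probe 31427, so cisplatin library 3 lay apart from the other 2 of its group. The other core genes, Ndufv2 and Ndufs1, had no tested row. Ndufv2 probe 31584 stood at 10.1, 7.61 and 11.8 CPM under cisplatin and 3.56, 2.53 and 5.51 CPM under vehicle, above without overlap. Its probe 63201 had 6 counts under cisplatin and 2 under vehicle, and the Ndufs1 probes had 0 and 0, 3 and 7, and 14 and 29. Such raw sums are not scaled for depth, which was 3832042 counts in the cisplatin libraries together and 5740566 in the vehicle libraries.

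**Figure D3:**
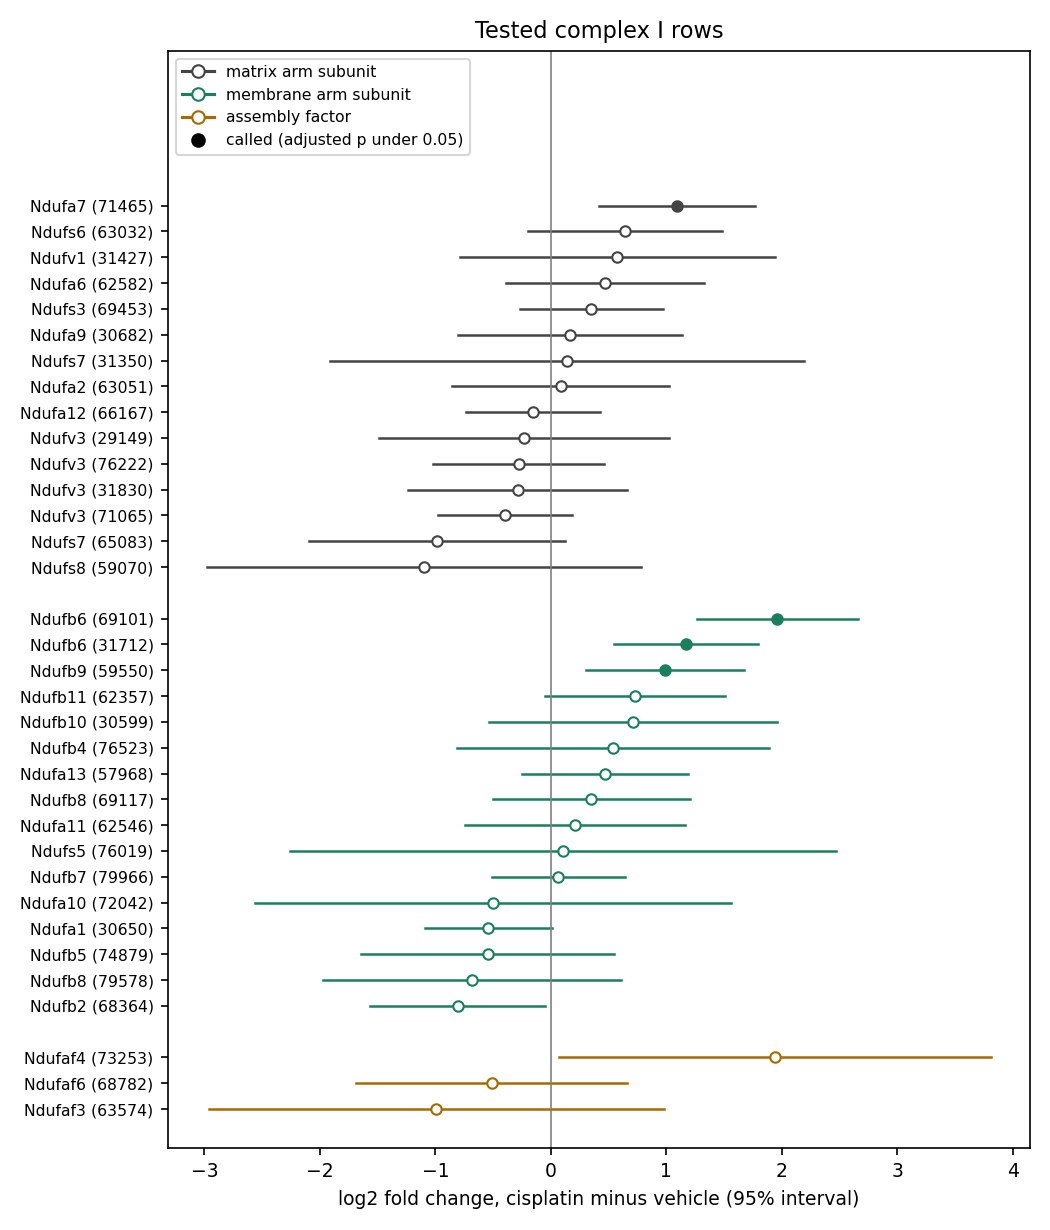
Log2 fold change (cisplatin minus vehicle) of the tested Nduf rows reported here, each with its 95% interval, grouped by class. The intervals, which are not adjusted for the number of rows, lie above 0 for the 4 called rows and Ndufaf4 and below 0 for Ndufb2, and only 4 rows have an interval that stays within 1 log2 unit of 0 on both sides.

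Accessory subunits of the matrix arm surround the core. Over the whole matrix arm 17 rows were tested, 1 was higher and 0 were lower, with a median log2 value of -0.15 over rows and 0.12 over genes, each gene taken at its probe with the highest mean CPM (at an unadjusted p below 0.05, 1 was higher and 0 lower; DESeq2 called 1 and 0). Ndufv3, a small accessory subunit next to the flavin site, had 4 tested probes, all below 0, at -0.23 to -0.39, and none called. Its strongest probe, 71065, stood at 121, 154 and 116 CPM under cisplatin and 175, 158 and 181 CPM under vehicle, without overlap. Ndufa12 was among the 3 tested subunit rows with the most counts, after Ndufb9 and Ndufb6 probe 69101. It stood at 162, 249 and 224 CPM against 214, 261 and 230 CPM, with a log2 value of -0.15 and an interval of -0.73 to 0.43. The annotated pseudogene Gm15920 is near-identical to Ndufa12 over 402 bases, so this value is uncertain as well. The same holds for Ndufs3 (Gm12251, 792 bases), Ndufb11 (Gm6444, 456 bases), Ndufs6 (Ndufs6b, 348 bases), Ndufs5 (BC002163, 319 bases), Ndufb4 (Ndufb4c, 390 bases), Ndufb2 (Gm42420, 145 bases) and Ndufb8 (Gm20538, 144 bases), and among untested genes for Ndufab1, Ndufaf7 and Ndufb3. Ndufa9, a matrix arm subunit close to the membrane, was tested at probe 30682 only (log2 0.16), and its probe 59930 had 5 counts under cisplatin and 23 under vehicle. All 3 probes of Ndufa5 had 10 counts or fewer in all libraries together.

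In the membrane arm 16 rows were tested, 3 were higher and 0 lower, and the median was 0.28 (at an unadjusted p below 0.05, 3 were higher and 1 lower; DESeq2 called 3 and 0). The 3 were the Ndufb6 and Ndufb9 rows already described, from 2 of the 14 tested genes. Over all tested rows 11.1% were called higher and 13.9% lower. At an unadjusted p below 0.05 these shares were 17.1% and 20.2%, and DESeq2 called 8.80% and 10.2%. A difference between the arms was not tested. Ndufb2, an accessory subunit, stood at 40.6, 52.3 and 32.2 CPM under cisplatin and 61.3, 93.4 and 65.3 CPM under vehicle. Every cisplatin library was lower, with a log2 value of -0.81 ± 0.35 (unadjusted p = 0.039, adjusted p = 0.112). Ndufa1, an essential small subunit encoded on chromosome X, stood at 162, 168 and 163 CPM against 211, 242 and 264 CPM at probe 30650. Those groups did not overlap either, at -0.54 ± 0.26 (adjusted p = 0.139), and its weak probe 80186 had 1 count under cisplatin and 27 under vehicle.

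Ndufb11, a membrane arm subunit also on chromosome X, stood at 155, 110 and 107 CPM under cisplatin and 47.4, 117 and 61.4 CPM under vehicle (log2 0.73 ± 0.36, adjusted p = 0.163). Vehicle library 2 was the sample that overlapped, and without it the row was called at 1.18 (adjusted p = 0.0330). Vehicle library 2 was the highest of its group in 27 of the 36 tested Nduf rows, vehicle library 1 the lowest in 21, and cisplatin library 3 the lowest of its group in 18. Ndufa13, also known as a cell death regulator, stood at 57.5, 59.9 and 75.1 CPM against 37.6, 51.1 and 50.4 CPM, above without overlap but not called (log2 0.47 ± 0.34, adjusted p = 0.340). Ndufb7 was almost level, at 157, 131 and 178 CPM against 149, 148 and 149 CPM, with an interval of -0.51 to 0.64. Both probes of Ndufb8 were tested and had opposite signs, 0.35 at probe 69117 and -0.68 at probe 79578, each with overlapping groups. Ndufb5 probe 74879 was not called (log2 -0.55 ± 0.51), and its weaker probe 30379 had 5 counts under cisplatin and 47 under vehicle. Ndufs5 had 0.846, 20.9 and 0 CPM under cisplatin against 4.35, 8.21 and 7.87 CPM under vehicle, so its log2 value of 0.10 turned to -3.69 (adjusted p = 0.106) without cisplatin library 2.

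Assembly factors had far fewer counts. Of the 8 genes 3 were tested, and 0 were called in either direction by edgeR or DESeq2, which tested 4. At an unadjusted p below 0.05, 1 was higher, Ndufaf4. Over all tested rows edgeR called 25.0%, and 17.1% were higher at that unadjusted p. Ndufaf4, which works in the early joining of matrix and membrane modules, had 10.1, 27.6 and 9.65 CPM under cisplatin and 3.16, 8.84 and 0.787 CPM under vehicle. The groups did not overlap and each mouse gave a ratio above 0, at a log2 fold change of 1.94 ± 0.87 (unadjusted p = 0.043, adjusted p = 0.121). It was called without cisplatin library 1 (2.28, adjusted p = 0.0495) and under no other alternative. Ndufaf3, a partner of Ndufaf4 in that step, had 0.846, 12.4 and 2.14 CPM against 7.12, 15.2 and 8.66 CPM, with overlap (log2 -0.99 ± 0.92, adjusted p = 0.471). Ndufaf6, an assembly factor with a phytoene synthase-like fold, had 18.6, 13.3 and 7.51 CPM against 20.6, 21.5 and 15.0 CPM (log2 -0.51 ± 0.55, adjusted p = 0.540).

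Among the untested factors, Ndufaf5, which modifies Ndufs7, had 1, 3 and 2 counts in the cisplatin libraries and 29, 5 and 12 in the vehicle libraries. Ndufaf1 had 4 counts under cisplatin and 10 under vehicle, Ndufaf7, a protein methyltransferase, had 4 and 4, and Ndufaf8 had 1 and 9. Ndufaf2 was at 0 in every library, as was Ndufs1 probe 72595; 0 of 9572608 counts allows a level of up to 0.313 CPM of library totals, which covers counting error only. Ndufab1 had 17 counts under cisplatin and 37 under vehicle and was not tested. Ndufa4, which carries a complex I name and is now placed with complex IV, had 14 and 4 counts, and its paralogue Ndufa4l2 had 6 and 6.

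The promoter of Ndufaf4 holds the exact NRF1 core, in capitals, at 112 to 105 bases upstream of the start (RefSeq, GRCm38.p6, chr4:24897833-24898082, plus strand). It is 1 of 3 such windows among the 44 Nduf windows of 250 bases, against 509 of 32851 windows of all genes. Ndufaf4 was picked with its values known, and the others are not shown. A link between this core and the level of any Nduf row was not tested.
Ndufaf4 promoter: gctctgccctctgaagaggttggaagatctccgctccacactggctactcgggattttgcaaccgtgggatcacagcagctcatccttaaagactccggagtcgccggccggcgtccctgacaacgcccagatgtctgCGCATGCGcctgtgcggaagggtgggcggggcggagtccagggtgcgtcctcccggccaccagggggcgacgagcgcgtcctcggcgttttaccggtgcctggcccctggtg
The exact core was present in RefSeq windows of 300 bases (250 before and 50 after the start) for 4 of 42 Nduf genes, against 2.07% of 27025 genes. For the exact YY1 site the figures were 8 of 42 and 3.19%, and for the exact ETS site 1 of 42 and 4.31%. In the 250 bases before the start alone, the exact YY1 site was in 0 of 44 Nduf windows. It was in 514 of 32851 windows of all genes. For the exact ETS site these counts were 0 and 945. The exact YY1 and ETS matches of the Nduf genes therefore reach past the start.

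Other complex I assembly genes, outside the Nduf names, comprised 10 genes with 13 rows, of which 6 were tested and 1 was higher. That row was Tmem186, a component of the assembly complex for the membrane arm, at 40.6, 71.3 and 30.0 CPM under cisplatin and 13.0, 14.5 and 13.4 CPM under vehicle (log2 1.79 ± 0.45, adjusted p = 0.011). Foxred1, an assembly flavoprotein, stood at 35.5, 14.3 and 7.51 CPM against 5.93, 5.68 and 4.72 CPM and was not called (1.81 ± 0.69, adjusted p = 0.071). On library totals alone none of the 6 tested rows was called. With TMM factors 11.1% of all tested rows were called higher.

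Among 11 regulators of respiratory genes, 8 rows from 4 genes were tested. Yy1 was higher, at 711, 790 and 950 CPM under cisplatin and 334, 451 and 409 CPM under vehicle (log2 1.04 ± 0.27, adjusted p = 0.012). Gabpa, the DNA-binding part of GABP, was lower, with 4 counts in the cisplatin libraries together and 84 in the vehicle libraries (log2 -3.27 ± 1.01, adjusted p = 0.030). On library totals alone none of the 8 rows was higher and 1 was lower. With TMM factors 11.1% of all tested rows were called higher and 13.9% lower.

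For the other nuclear-encoded respiratory complexes and the mitochondrial ribosome, 11.9% and 10.7% of tested rows were called higher, against 11.1% of the whole table. None was called lower, against 13.9% of the whole table. For complexes II to V, 42 rows were tested, 5 were higher and 0 lower (at an unadjusted p below 0.05, 12 and 0; DESeq2 6 and 0), with a median of 0.39. Cox6a1, a complex IV subunit, had the smallest adjusted p, at 164, 112 and 167 CPM against 34.0, 41.7 and 45.3 CPM (log2 1.87 ± 0.32, adjusted p = 0.00094), and Cox4i1, of the same complex, followed at 1.21 ± 0.32. For mitochondrial ribosomal proteins, 56 rows were tested, 6 were higher and 0 lower (at an unadjusted p below 0.05, 12 and 1; DESeq2 7 and 0), with a median of 0.44, led by Mrpl38 (1.48 ± 0.28) and 1 of the 2 Mrpl45 probes (1.66 ± 0.41). On library totals alone complexes II to V had 1 row called higher and 0 lower, and the ribosomal proteins 1 and 1. Over all tested rows the shares on that scale were 4.89% higher and 21.6% lower. At an unadjusted p below 0.05 they were 17.1% and 20.2%, and DESeq2 called 8.80% and 10.2% of the rows it tested. Differences between these lists and the Nduf rows were not tested.

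Complex I subunits encoded in mitochondrial DNA had 10 rows for 6 genes. All 9 tested rows were higher, against 11.1% of all tested rows, with a median log2 value of 4.21. Without cisplatin library 3, 7 of 9 were called and the median was 2.3. The number called was 6 without vehicle library 3, 7 without vehicle library 1, 5 without mouse 2 and 4 without mouse 3. Over the whole table, 955 of 10685 tested rows were higher without cisplatin library 3. The table held 579 of 10194 without vehicle library 3 and 504 of 9988 without vehicle library 1. It held 656 of 10404 without mouse 2 and 424 of 9985 without mouse 3. On library totals alone 8 of 9 were higher, with a median of 3.55, against 4.89% of all tested rows. The 2 mt-Nd6 rows made up 97.9% to 99.7% of these counts in each library. Per count on a nuclear Nduf row there were 5.22, 9.80 and 96.8 counts on mitochondrially encoded rows in cisplatin libraries 1, 2 and 3 and 5.62, 0.454 and 2.41 in the vehicle libraries, so these ratios overlapped between the groups. With mt-Nd6 left out, the rest summed to 210, 366 and 1365 CPM against 47.8, 36 and 42.1 CPM, without overlap.

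The 29 tested Nduf genes have a median annotated span of 7.28 kb (1.90 to 34.9 kb), against 24.3 kb for the 7078 tested genes with a span. Across those 7078 genes the log2 fold change was lower for longer spans (Spearman's rho -0.56), while across the 29 Nduf genes rho was -0.11. Both are descriptions across genes that share the same 6 libraries, and genes are not independent replicates.

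**Figure D4:**
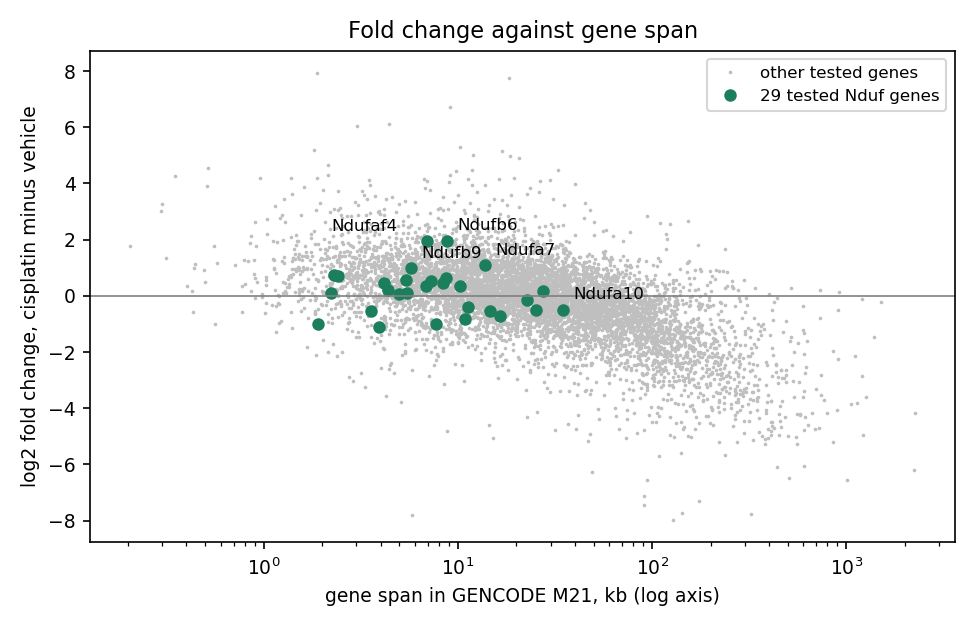
Annotated gene span (kb, log axis) against log2 fold change for tested genes, with the 29 Nduf genes marked over all 7078. The Nduf genes sit at the short end, between 1.90 and 34.9 kb, and Ndufb6 and Ndufaf4 lie highest among them.

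The precision of these values is limited by the number of libraries and, for weak rows, by their counts. In counts simulated from the same libraries, 56 of 88 rows changed by 2 log2 units were called, and 9 of 96 rows changed by 1 unit. There 8557 tested rows were unchanged, whereas 25.0% of all tested rows were called in the data. With few changed rows the adjusted p is harder to pass. These simulated counts therefore do not give the share of changed Nduf rows that would be missed. Of the 36 tested Nduf rows, 4 (Ndufs3, Ndufb7, Ndufa12 and Ndufv3 probe 71065) had a 95% interval within 1 log2 unit of 0. In the remaining rows that were not called, the intervals allow a change of 1 unit or more.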

How the data were processed

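TempO-Seq libraries of 3 cisplatin and 3 vehicle islet cultures were compared. The deposited table holds raw counts, whole numbers per probe and library. Per the submitters' processing notes, fastp 0.23.2, STAR 2.7.10b and DESeq2 1.44.0 were used; the alignment target is not given in the sources used here, nor is the read counting, so reads of near-identical genes may be shared.

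Rows were kept by edgeR 4.0.16's expression filter (minimum count 10), scaled with TMM factors and tested with the robust quasi-likelihood F-test (R 4.3.3) on treatment alone. Adjustment was by the Benjamini-Hochberg method over 9381 rows. SE and 95% intervals come from the fold change, its F statistic and the moderated degrees of freedom. The p-values rest on the spread among the 3 libraries of each group, moderated over all rows, with 1 library per mouse and group. All libraries were treated as independent, so these p-values do not measure how the difference varies between paired mice. Reads carried no molecular identifiers, so the limit given for a count of 0 covers counting error only. Scripts were tested on simulated data with 9381 rows, where 5 of 8557 unchanged rows were called.

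Both libraries of a mouse carry the same animal identifier in the labels, which pairs them; deviations of the same mouse correlated at -0.12, 0.03 and 0.22. The mouse block changed no Nduf call. Alternatives were other scalings (RLE, upper quartile, library totals, mitochondrially encoded rows left out), no filter and a mean CPM filter, DESeq2 1.42.0, the mouse block, probes summed per gene, thinned counts, and leaving out each library or mouse. Gene spans and near-identical transcripts (BLAST 2.17.0) are from GENCODE M21, promoters from RefSeq; Ndufb9 was not among the promoters matched.

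The members, lists and alternatives were chosen with earlier results of these data known. Named genes were all called Nduf rows, the 3 tested subunit rows with the most counts, the core subunits, all assembly factors, Ndufab1, Ndufa4, Ndufa4l2, every gene with several probes, and of each other list the 2 members with the smallest adjusted p. Ndufa13, Ndufb2, Ndufb7, Ndufb11 and Ndufs5 were named after their values were seen. Some values that this rule named are not reported here, while the counts and medians include them.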

Additional observations from a re-analysis of the deposited data

How the results depend on the processing

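All 4 called Nduf rows had log2 values above 0 under every alternative that gave them a value. The scalings by RLE and upper quartile, the mitochondrially encoded rows left out, no filter, the mean CPM filter, DESeq2, the replicate block and thinned counts each called the same 4 rows and none lower; the block gave 4 Nduf rows higher and 0 lower, with 959 higher and 1238 lower over the table. With probes summed per gene, the 3 genes were called. Library totals alone gave 1 Nduf row (1 gene) higher and 4 rows (4 genes) lower, 459 higher and 2023 lower over all rows, and a median of -0.25 in place of 0.19 over subunit genes.

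Without mouse 1 and without mouse 3, 1 Nduf row (1 gene) was called higher, Ndufb6 probe 69101. Without mouse 2, 4 rows were called higher, both Ndufb6 rows, Ndufb9 and Ndufb11, but not Ndufa7. Over all rows the calls were 593 higher and 757 lower without mouse 1, 656 and 855 without mouse 2, and 424 and 597 without mouse 3. Leaving out 1 library gave 1 to 5 Nduf rows (1 to 4 genes) higher, and 504 to 1244 rows higher and 581 to 1294 lower over the table. The lowest counts came without vehicle library 1; without vehicle library 3 too, only Ndufb6 probe 69101 was called. The cause of these losses was not tested, beyond the fewer samples.

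Uncalled rows whose sign turned had these log2 values. Library totals gave Ndufa11 -0.19, Ndufa13 -0.0091, Ndufa2 -0.38, Ndufa9 -0.32, Ndufb7 -0.41, Ndufb8 probe 69117 -0.12, Ndufs3 -0.043, Ndufs5 -0.41 and Ndufs7 probe 31350 -0.23. No filter gave Ndufa2 -0.017, Ndufb7 -0.044 and Ndufs5 -0.00048. The replicate block gave Ndufa2 -0.037, Ndufs5 -1.18 and Ndufs7 probe 31350 -0.12, and thinned counts gave Ndufa2 -0.014. Without mouse 1, Ndufa11 was -0.082, Ndufa6 -0.20 and Ndufs7 probe 31350 -0.30. Without mouse 2, Ndufa2 was -0.29, Ndufb8 probe 79578 0.059 and Ndufs7 probe 31350 -0.51. Without mouse 3, Ndufa10 was 0.22 and Ndufb7 -0.050. With 1 library left out, the ranges were -0.97 to 0.069 for Ndufa10, -0.29 to 0.10 for Ndufa12, -0.48 to 0.40 for Ndufa2, -0.023 to 0.77 for Ndufa6, -0.075 to 0.40 for Ndufa9, -0.92 to 0.33 for Ndufb5 probe 74879, -0.028 to 0.17 for Ndufb7, -0.015 to 0.60 for Ndufb8 probe 69117, -3.69 to 0.71 for Ndufs5, -0.52 to 0.72 for Ndufs7 probe 31350, -0.92 to 0.14 for Ndufv3 probe 29149 and -0.53 to 0.22 for Ndufv3 probe 31830.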
